A study of Mus musculus with 6 samples.

Results

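The nuclear-encoded genes of complex I, the respiratory chain enzyme that oxidizes NADH and passes electrons to ubiquinone, were followed in an immortalized mouse podocyte line given an siRNA against Tfeb or a scrambled siRNA. Members were the protein-coding genes whose symbol begins with Ndufa, Ndufb, Ndufc, Ndufs, Ndufv, Ndufab or Ndufaf and then a digit. The deposited table held 46 of them among 53715 genes: 38 were treated as structural subunits and 8, the Ndufaf genes, as assembly factors. There were 3 libraries per group. All were made from cells that were grown at 33 °C in 10% serum with interferon gamma and then differentiated at 37 °C in 5% serum on type I collagen for 10 to 14 days. The control cells are labelled WT and the others TFEB knockdown. Both come from 1 cell line, and nothing in the labels says whether replicates were separate cultures, so a p here covers no more than library-to-library spread, which may be technical. In bulk RNA of this kind, fewer cells of a type and less RNA per cell cannot be told apart.

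Complex I has an L shape. Its peripheral arm, in the mitochondrial matrix, carries the flavin, the iron-sulfur clusters and the ubiquinone site on core subunits shared with bacteria, and its membrane arm pumps protons. The core subunits of the membrane arm are encoded by mitochondrial DNA, while accessory subunits encoded in the nucleus surround both arms. Assembly factors bind intermediates while the modules are joined and are absent from the finished enzyme. Podocytes, the filtering epithelium of the glomerulus, are known to be affected in several inherited defects of mitochondrial function.

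Libraries held 18062898 to 20610888 reads, derived from the deposited FPKM values (read fragments divided by gene length in kilobases and by a depth factor of the library). Tfeb had 2.04 ± 0.233 FPKM with scrambled siRNA and 0.725 ± 0.0916 FPKM with Tfeb siRNA (SD, n = 3 each, here and below), and every library given its siRNA was below every control. Of 10 podocyte markers 5 reached 1 FPKM (among them Actn4, Cd2ap, Podxl and Synpo), whereas 5 lay below it, among them the slit diaphragm gene Nphs1 and also Wt1, Ptpro and Tcf21, so defining genes of the labelled cell type were nearly absent. The podocyte list summed to 274 to 294 FPKM in the controls and 261.0 to 263 FPKM after Tfeb siRNA. Within it 1 gene was called lower, Synpo (74.4 and 47.6 FPKM in the mean, limma adjusted p = 0.000876), and 2 were called higher, among them Podxl (8.72 and 15.8 FPKM, limma adjusted p = 0.000598). The mesangial and smooth muscle list, almost all of it Acta2, summed to 1496 to 1609 and 1432 to 1455 FPKM, and the part of either shift in the results below was not tested. Endothelial markers summed to at most 0.575 FPKM in any library. Tubule markers, chiefly Lrp2, summed to 46.3 to 56.5 FPKM in the controls and 42.6 to 49.2 FPKM after Tfeb siRNA, with Umod at 0. Leukocyte markers summed to 4.13 to 4.43 and 2.23 to 2.39 FPKM, with Cd3e at 0 and the macrophage gene Csf1r called lower, and the part of these in the results was not tested.

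Several accessory subunits of complex I, of the peripheral and of the membrane arm, fell after Tfeb siRNA. Of the 38 structural genes 37 passed the filter of a mean of 1 FPKM, and 9 of these were lower, 1 was higher and 27 did not pass the test (limma, adjusted p below 0.05 over all 12257 genes tested). The 9 that fell were Ndufb6, Ndufb3, Ndufa10, Ndufa13, Ndufb8, Ndufc2, Ndufa7, Ndufa9 and Ndufb5, by 12.5% to 28.9% of mean FPKM. Of the 8 assembly factors 2 fell, Ndufaf1 by 41.5% and Ndufaf4 by 21.9%, and 0 rose. Among all genes tested 16.4% were lower, 16.9% were higher and 33.3% were called in either direction, against 24.3%, 2.70% and 27.0% of the structural genes. The share called in either direction was thus below that of all genes, and the calls leaned to one side.

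The fold change, on the log2(FPKM + 0.5) scale throughout, was below 0 for 29 of the 37 structural genes (78.4%) and for 47.8% of all genes tested. Its median was -0.13 over the structural genes, -0.21 over the 8 assembly factors and 0.02 over all genes tested. The groups did not overlap for 12 structural genes (11 lower, 1 higher; 32.4%), where the share among all genes tested was 48.7%. The median size of the log2 fold change of the structural genes was 0.15. Their median SD between replicates was 0.09 in the controls and 0.10 after Tfeb siRNA. Without scrambled siRNA replicate 3, or without Tfeb siRNA replicate 1, only 5 of 37 structural genes were called lower. Ndufa7, Ndufa9, Ndufb5 and Ndufc2 lost their calls in both fits. Of all genes tested 11.1% and 13.5% were lower in these fits, in the same order. With the replicate number as a block, 13 structural genes were lower (19.5% of all genes tested were lower in that fit), and the blocked values stand beside the genes concerned.

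**Figure D1:**
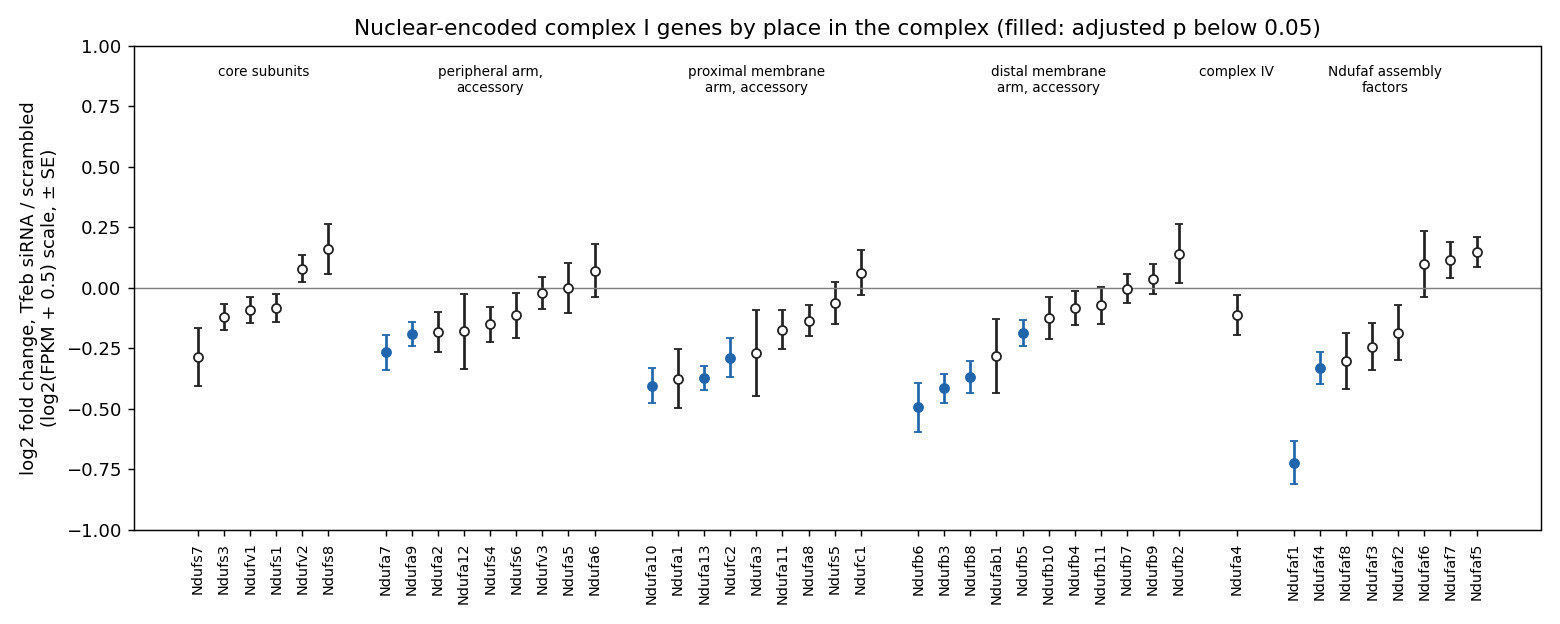
The log2 fold change (Tfeb siRNA over scrambled siRNA, vertical axis) of 44 of the 45 tested members, with SE bars, ordered within the arm of the enzyme to which each subunit belongs; filled points have a limma adjusted p below 0.05. The 11 filled points, all below 0, lie among the accessory subunits and the assembly factors.

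Values by library are given below in order of replicate number, the scrambled siRNA libraries first, and positions are those of mm10. Whether the counting used strand is not given in the sources used here, and the part of reads from overlapping genes of the opposite strand was not tested. Among the core subunits Ndufs1, Ndufs3, Ndufs7, Ndufs8, Ndufv1 and Ndufv2 were not called in either direction. Ndufs8, which binds iron-sulfur clusters, had 34.3, 38.2 and 37.7 FPKM in the controls and 35.2, 42.3 and 46.5 FPKM after Tfeb siRNA, so its groups overlapped (limma log2 fold change 0.16, adjusted p = 0.277). It was called higher without Tfeb siRNA replicate 1 (adjusted p = 0.0459). Ndufs7, the iron-sulfur subunit beside the ubiquinone site, had 12.6, 16.0 and 15.2 FPKM in the controls and 10.2, 13.1 and 12.3 FPKM after Tfeb siRNA. Replicate 1 was the lowest of its group on both sides, and the gene, not called here (limma adjusted p = 0.106), was lower with that number as a block (0.00625) or when scrambled siRNA replicate 1 was left out. Ndufv1, which binds NADH and the flavin, had 37.5, 39.6 and 40.4 FPKM and then 34.9, 37.9 and 37.3 FPKM, and its iron-sulfur partner Ndufv2 had 26.7, 24.8 and 27.2 FPKM and then 27.2, 27.1 and 28.9 FPKM. Ndufs1, the largest subunit and a carrier of iron-sulfur clusters, had 10.1 ± 0.332 and 9.47 ± 0.433 FPKM, and Ndufs3 13.3 ± 0.305 and 12.2 ± 0.535 FPKM. The median deviation of the core genes from the control mean was -0.06, -0.05 and -0.07 in the 3 Tfeb siRNA libraries.

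Of the 9 accessory subunits of the peripheral arm 2 fell and 0 rose (median log2 fold change -0.15). Their summed FPKM was 220.1 to 244 in the controls and 205 to 224 after Tfeb siRNA, 9.68% lower in the mean, and the groups overlapped. Ndufa9, a subunit of the short-chain dehydrogenase fold at the joint of the arms, had 42.6, 42.5 and 45.2 FPKM in the controls and 37.5, 38.9 and 37.8 FPKM after Tfeb siRNA (log2 fold change -0.19, SE 0.05, limma adjusted p = 0.0236). Its groups did not overlap, but the call was lost without scrambled siRNA replicate 3 (adjusted p = 0.0897) or Tfeb siRNA replicate 1 or 3. Ndufa7 had 34.3, 32.4 and 33.5 FPKM in the controls and 25.0, 28.4 and 29.9 FPKM after Tfeb siRNA (log2 fold change -0.27, SE 0.07, limma adjusted p = 0.0296). It too did not overlap, with Tfeb siRNA replicate 1 the lowest, and lost its call with no filter and without any 1 of 5 libraries, Tfeb siRNA replicate 3 being the exception (highest adjusted p = 0.0841). Ndufs4 (23.0 ± 1.72 and 20.7 ± 1.22 FPKM), a subunit often mutated in inherited complex I deficiency, and Ndufa2 (63.7 ± 5.66 and 56.1 ± 4.02 FPKM) did not pass the test. Neither did the zinc-binding Ndufs6 (15.9 ± 1.24 and 14.7 ± 1.65 FPKM), Ndufv3, Ndufa5 or Ndufa6, whose log2 fold changes ran from -0.11 to 0.07, nor Ndufa12, described with its copies further on.

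The membrane arm held most of the decreases. In its proximal part 3 of 9 accessory subunits fell and 0 rose (median log2 fold change -0.27), and in its distal part 4 of 11 fell and 0 rose (median -0.13). Together 7 of 20 membrane arm genes fell (35.0%), against 2 of 16 in the peripheral arm (12.5%). All 20 are accessory subunits, whereas the 16 include 7 core subunits, of which 0 fell. Of the peripheral accessory subunits alone 22.2% fell, and of all genes tested 16.4% were lower. The difference between the arms was not tested. The sum over the proximal genes was 271 to 305 FPKM in the controls and 237 to 251 FPKM after Tfeb siRNA, 15.0% lower in the mean. The sum over the distal genes was 344 to 366 and 273 to 309 FPKM, 17.3% lower, and neither sum overlapped between the groups. Sums weigh abundant genes most. The distal genes of highest FPKM, Ndufb6 (99.87 and 70.95 in the mean) and Ndufb3 (70.74 and 52.88), were both called lower.

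Ndufb6, a distal subunit (ENSMUSG00000071014, chromosome 4, 40270591 to 40279421, minus strand), had the largest fall among the subunits. It stood at 95.5, 94.8 and 109 FPKM in the controls and at 61.0, 76.1 and 75.8 FPKM after Tfeb siRNA (log2 fold change -0.49, SE 0.10, limma adjusted p = 0.0108). Tfeb siRNA replicate 1 was well below replicates 2 and 3, and all 3 were below each control. Ndufb3 (chromosome 1, 58586384 to 58595964, plus strand) went from 75.9, 68.4 and 67.9 FPKM to 53.4, 50.8 and 54.4 FPKM (log2 fold change -0.42, SE 0.06, limma adjusted p = 0.00293). Ndufb8, which recurs in work on complex I as a protein marker of its assembly, went from 27.7, 29.4 and 31.3 FPKM to 21.2, 23.5 and 23.5 FPKM (log2 fold change -0.37, SE 0.07, limma adjusted p = 0.00658). These 3 genes kept their calls in all 12 alternative settings. Ndufb5 changed least, from 6.41, 6.27 and 6.44 FPKM to 5.62, 5.42 and 5.57 FPKM, with very close replicates (log2 fold change -0.19, limma adjusted p = 0.0325). It lost its call without any 1 of the 6 libraries and with no filter on low values (highest adjusted p = 0.101). Mrpl47, on the opposite strand, overlaps 12.3% of its exon bases and had 4.41 ± 0.218 and 3.76 ± 0.275 FPKM. Smim27, which overlaps 39.0% of the exon bases of Ndufb6, had at most 17 reads in a library.

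The other 7 distal genes did not pass the test. Ndufb10 had 40.1 ± 3.48 and 36.7 ± 3.16 FPKM, Ndufb11 42.1 ± 1.04 and 40.1 ± 3.99 FPKM, and Ndufb9, a subunit of the LYR protein family that holds the acyl carrier protein, 27.7 ± 1.36 and 28.4 ± 1.60 FPKM. Ndufb7 was at nearly the same level in both groups (11.7 ± 0.365 and 11.7 ± 0.658 FPKM), and Ndufb4 had 16.5 ± 1.21 and 15.5 ± 0.785 FPKM. Ndufb2 was the lowest structural gene above the filter, at 1.40, 1.46 and 1.60 FPKM in the controls and 1.86, 1.42 and 1.80 FPKM after Tfeb siRNA. Ndufab1, the mitochondrial acyl carrier protein, had 5.20, 6.78 and 6.86 FPKM in the controls and 4.02, 5.57 and 5.69 FPKM after Tfeb siRNA. Replicate 1 was the lowest in both of its groups, and it missed the threshold (log2 fold change -0.28, limma adjusted p = 0.196) except with the replicate number as a block (0.0136).

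In the proximal part of the membrane arm Ndufa10, a subunit of the nucleoside kinase fold (ENSMUSG00000026260, chromosome 1, 92439010 to 92473860, minus strand), fell from 23.6, 24.8 and 26.5 FPKM to 17.7, 18.3 and 20.3 FPKM (log2 fold change -0.40, SE 0.07, limma adjusted p = 0.00576). Ndufa13, also known as GRIM-19 for a role in cell death, fell from 38.9, 41.0 and 39.6 FPKM to 29.8, 30.4 and 31.7 FPKM (log2 fold change -0.37, SE 0.05, limma adjusted p = 0.00189). Both kept their calls in all 12 alternative settings, and in both every Tfeb siRNA library was below every control. Tssk6 overlaps 30.0% of the exon bases of Ndufa13 on the other strand and had 0.587 ± 0.237 and 0.638 ± 0.151 FPKM. Ndufc2 went from 16.9, 16.8 and 18.5 FPKM to 12.6, 15.0 and 15.0 FPKM (log2 fold change -0.29, limma adjusted p = 0.0314). Its call was lost without any control library, without Tfeb siRNA replicate 1, with no filter and with voom (highest adjusted p = 0.102). Ndufa1, an X-linked subunit, had 63.1, 48.1 and 54.6 FPKM in the controls and 45.8, 36.5 and 45.0 FPKM after Tfeb siRNA, with replicate 2 the lowest of each group. Its groups did not overlap, yet it missed the threshold (log2 fold change -0.38, SE 0.12, limma adjusted p = 0.0517) and passed it with the replicate number as a block (0.00450), with voom and without scrambled siRNA replicate 2. Ndufa3 showed the same order of replicates, with 18.2 ± 3.06 and 15.2 ± 3.52 FPKM (limma adjusted p = 0.284, with the block 0.0348). Ndufa8 (64.6 ± 4.76 and 58.7 ± 1.81 FPKM), Ndufa11 (15.4 ± 1.47 and 13.6 ± 0.855 FPKM), Ndufs5 and Ndufc1 did not pass.

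**Figure D2:**
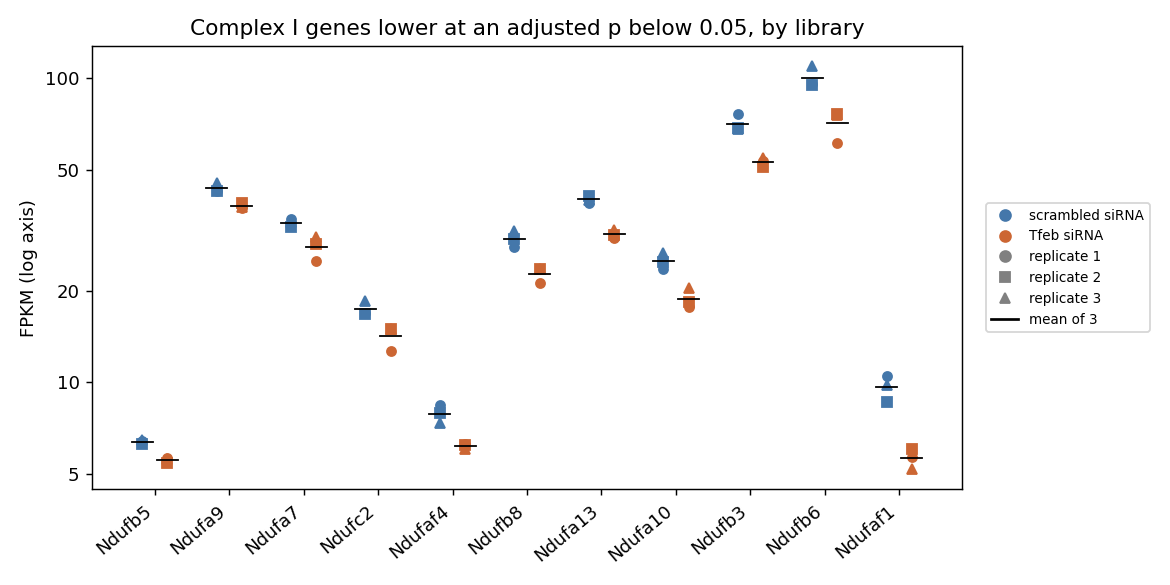
FPKM (log axis) in each of the 6 libraries for the 11 members called lower, ordered from the smallest to the largest decrease in log2 fold change; colours give the group, shapes the replicate number and black lines the mean of 3. For each of the 11 genes all 3 Tfeb siRNA points lie below all 3 control points.

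Ndufa4 carries an Nduf name but is now assigned to complex IV, cytochrome c oxidase. It was the most abundant member, at 107, 92.8 and 104 FPKM in the controls and 92.6, 86.0 and 102 FPKM after Tfeb siRNA, and its groups overlapped (limma log2 fold change -0.11, adjusted p = 0.346). Its paralog Ndufa4l2, known as a hypoxia-induced gene, lay under the filter, with 14 reads in the 3 control and 7 in the 3 Tfeb siRNA libraries. Without these 2 genes the structural counts were 9 lower and 1 higher of 36, with a median log2 fold change of -0.13.

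Assembly factors held the largest decrease of any member. Ndufaf1, a scaffold of the complex that assembles the proximal membrane arm (ENSMUSG00000027305, chromosome 2, 119655446 to 119662827, minus strand), had 10.5, 8.63 and 9.75 FPKM in the controls and 5.68, 6.02 and 5.17 FPKM after Tfeb siRNA. The groups were well apart (log2 fold change -0.72, SE 0.09, limma adjusted p = 0.00143; 902 and 486 reads), and the call held in all 12 alternative settings. Ndufaf4 (chromosome 4, 24898083 to 24905001, plus strand) had 8.40, 7.93 and 7.32 FPKM in the controls and 6.25, 6.20 and 6.01 FPKM after Tfeb siRNA, again with no overlap (log2 fold change -0.33, SE 0.07, limma adjusted p = 0.00874), and held in all 12 as well. Its partner in building the ubiquinone module, Ndufaf3, had 3.75, 3.81 and 3.82 FPKM and then 2.80, 3.65 and 2.99 FPKM. It missed the threshold (limma adjusted p = 0.0969) and passed it without Tfeb siRNA replicate 2, its highest knockdown library (0.0280).

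Ndufaf8, which stabilizes Ndufaf5, had 7.08, 8.52 and 9.17 FPKM in the controls and 5.82, 6.57 and 7.38 FPKM after Tfeb siRNA. These ranges overlapped (limma adjusted p = 0.0849), and the gene was called lower in the blocked fit (0.00878) or when scrambled siRNA replicate 1 was left out. Ndufaf5, a hydroxylase of Ndufs7, had 4.29, 4.49 and 4.41 FPKM and then 4.64, 5.05 and 5.09 FPKM, with no overlap but no call (log2 fold change 0.15, limma adjusted p = 0.116). Ndufaf7, a methyltransferase, had 5.77, 6.40 and 6.87 FPKM and then 7.12, 6.97 and 6.65 FPKM (limma adjusted p = 0.265). Ndufaf6 had 3.54, 3.95 and 4.76 FPKM and then 3.66, 5.04 and 4.53 FPKM. Ndufaf2, a relative of Ndufa12 that takes its place during assembly, had 6.12, 4.58 and 5.40 FPKM and then 4.18, 5.02 and 4.73 FPKM. Neither Ndufaf6 nor Ndufaf2 passed the test, and the groups of both overlapped.

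**Figure D3:**
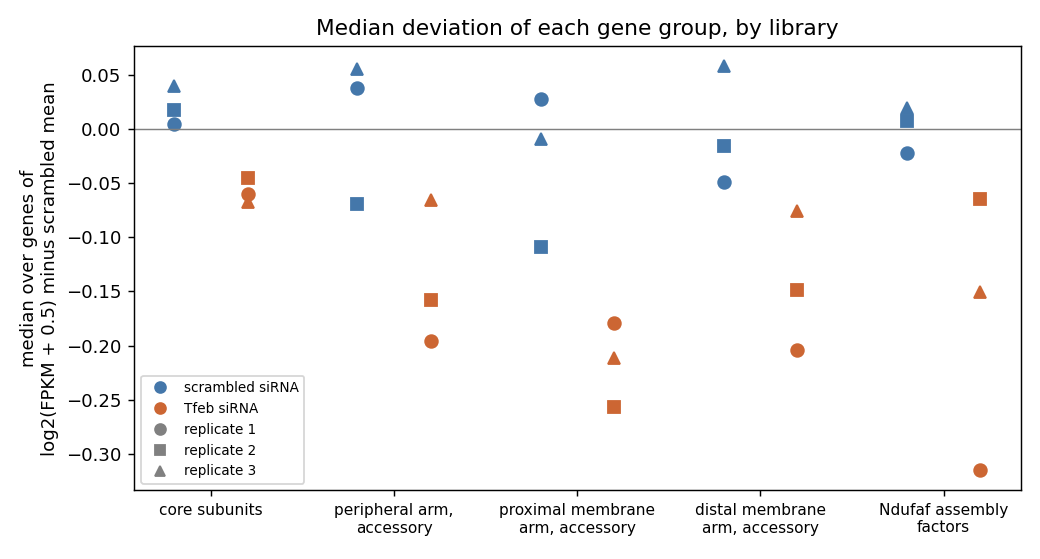
The median, over the genes of each group, of log2(FPKM + 0.5) minus the mean of the scrambled siRNA libraries, for each of the 6 libraries (colours give the group, shapes the replicate number). In the proximal membrane arm the Tfeb siRNA libraries lie between -0.26 and -0.18, with scrambled siRNA replicate 2 at -0.11. They lie between -0.20 and -0.08 in the distal membrane arm and between -0.20 and -0.07 in the accessory peripheral arm. In the core subunits they lie between -0.07 and -0.05, while the assembly factors range from -0.31 to -0.06.

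Assembly factors with other names were taken from a list of 12, of which 11 were matched by symbol. They gave 1 gene lower (9.09%, beside 16.4% of all genes tested) and 0 higher (median log2 fold change -0.09). Tmem70, known for the assembly of ATP synthase and of complex I, fell from 37.5, 37.4 and 41.5 FPKM to 31.6, 30.0 and 29.7 FPKM (log2 fold change -0.34, SE 0.06, limma adjusted p = 0.00542). The partners of Ndufaf1 in its assembly complex were not called: Tmem126b had 5.80 ± 0.413 and 4.82 ± 0.516 FPKM, Acad9 3.97 and 3.70 FPKM in the mean, and Ecsit 6.70 and 7.09 FPKM. Timmdc1, Tmem186, Foxred1, Nubpl, Lyrm2, Dmac1 and Dmac2 did not pass either. The 7 complex I subunits encoded by mitochondrial DNA had log2 fold changes of 0.03 to 0.20 and 0 calls in limma, with 1 gene, mt-Nd5, under the same threshold before adjustment, on the other side of 0 from most nuclear subunits. Mitochondrial reads made up 1.36% to 1.43% of the controls and 1.44% to 1.57% of the Tfeb siRNA libraries.

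Nuclear genes of complexes II to V, selected by symbol, gave 4 lower (10.0%) and 1 higher (2.5%) of 40 tested. Of their fold changes 70.0% were below 0, with a median of -0.09. Mitochondrial ribosomal proteins gave 8 lower (10.5%) and 5 higher (6.58%) of 76, with 57.9% below 0 and a median of -0.04. The shares over all genes tested were 16.4% lower and 16.9% higher, so both sets were below them in each direction. Differences between these groups and complex I were not tested. Complex I genes are short, and of the 290 tested protein-coding genes with a deposited length under 1 kilobase 16.9% were lower and 9.66% higher, with a median log2 fold change of -0.06. The 10 structural genes of that length had a median of -0.16 and the 27 longer ones -0.12.

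Levels differed widely between the structural genes, and the order depended on the gene length used. The mean over 6 libraries ran from 1.59 FPKM (Ndufb2) and 5.69 FPKM (Ndufab1) to 85.4 FPKM (Ndufb6) and 97.4 FPKM (Ndufa4). The deposited length joins all exons of all transcripts of a gene, as GENCODE M21 gives it for 36 of the 46 members, and it was at least 2 times the length of the principal coding transcript for 10 of the 45 tested members. Ndufb7 had a deposited length of 4522 bases and a principal transcript of 623 bases, so that its 11.7 FPKM, rank 31 of the tested structural genes, became 84.7 FPKM and rank 6 on the shorter length. Ndufb8 moved from 26.1 to 121 FPKM, Ndufa7 from 30.6 to 98.6 FPKM and Ndufa11 from 14.5 to 70.9 FPKM. Ndufb2 stayed lowest at 2.05 FPKM on a principal transcript of 4371 bases, and its longest annotated 3' UTR had 4012 bases. Where coding transcripts ranked equally as principal, the longest was taken, and the rank of Ndufb2 on a shorter one was not examined. This rescaling assumes that all reads come from the principal transcript, and it leaves fold changes between groups as they are.

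**Figure D4:**
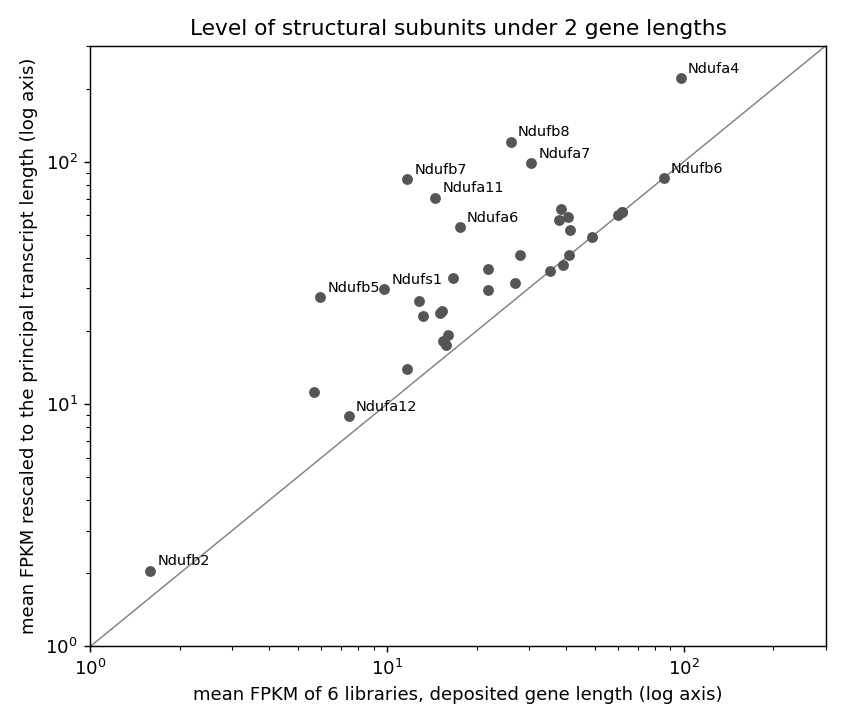
Mean FPKM over 6 libraries of 36 of the 37 tested structural genes with the deposited gene length (horizontal log axis) and rescaled to the length of the principal transcript (vertical log axis); the line marks equal values. Ndufb7, Ndufb8, Ndufa11 and Ndufb5 lie farthest above the line.

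Processed pseudogenes share sequence with several members, and some held many reads. By 50-base words, 17.7% of the sequence of Ndufa12 recurs in Gm15920, a processed pseudogene with 86.8 ± 7.46 and 79.5 ± 6.15 FPKM. Gm15920 held 581 to 799 reads per library, whereas Ndufa12 itself held 662 reads over the 3 control libraries and 529 over the others (7.94 ± 1.82 and 6.87 ± 0.740 FPKM). The level of Ndufa12 is therefore uncertain. The same holds at 10% or more of words for Ndufs5 (21.7%, with BC002163 at 15.1 ± 0.537 and 12.3 ± 3.39 FPKM), Ndufb4 (18.3%, chiefly Ndufb4c) and Ndufs3 (16.1%, with Gm12251 at 13.2 ± 1.04 and 12.6 ± 0.648 FPKM). Ndufab1 shared 7.13% of its words elsewhere, and its copy Gm4459 fell from 45.2 ± 6.58 to 33.9 ± 2.37 FPKM (log2 fold change -0.40, limma adjusted p = 0.0271). Among the called members the share was highest for Ndufb3, at 6.72%, with a pseudogene listed at 0.

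Promoter windows from RefSeq (GRCm38.p6; 250 bases before to 50 after a start site) were matched for 40 of the 46 members, and those without one included Ndufa2, Ndufb9, Ndufs1, Ndufaf6 and Ndufa4l2. They were searched on both strands for CACGTG, the E-box that MiT/TFE factors and others bind, its longer form TCACGTGA, which contains it, GCATGCGC (NRF1), AAGATGGCG (YY1) and TCAAGGTCA (ERR). TCACGTGA was in 0.974% of all 32851 windows, in 2.02% of the 10836 windows of tested genes and, among the members, in both windows of Ndufa7. CACGTG was in 7.15% of all windows, in 10.1% of those of tested genes and in those of Ndufa7 and Ndufv1. GCATGCGC was in 2.71% of all windows, in 5.53% of those of tested genes and in those of Ndufa6, Ndufa8, Ndufa11, Ndufaf4 and Ndufaf5. AAGATGGCG was in 1.40% of all windows, in 3.26% of those of tested genes and in those of Ndufa9, Ndufc1, Ndufs4, Ndufs6, Ndufs7 and Ndufaf8. TCAAGGTCA was in 0.423% of all windows, in 0.240% of those of tested genes and in no member window. Of the genes that fell, 3 had a window with a searched motif, and these are shown with the motif in capitals (for Ndufa7, 1 of its 2 overlapping windows). In Ndufa7 TCACGTGA begins 73 bases before the start site of the window shown. The same site begins 146 bases before the start site of the other window. AAGATGGCG begins shortly after the start of Ndufa9. GCATGCGC, read on both strands of a palindrome, begins 111 bases before the start of Ndufaf4, with a further match beginning just after the start site. The Ndufa7 window is chr17:33824322-33824621, plus strand, the Ndufa9 window is chr6:126849095-126849394, minus strand, and the Ndufaf4 window is chr4:24897833-24898132, plus strand.
Ndufa7: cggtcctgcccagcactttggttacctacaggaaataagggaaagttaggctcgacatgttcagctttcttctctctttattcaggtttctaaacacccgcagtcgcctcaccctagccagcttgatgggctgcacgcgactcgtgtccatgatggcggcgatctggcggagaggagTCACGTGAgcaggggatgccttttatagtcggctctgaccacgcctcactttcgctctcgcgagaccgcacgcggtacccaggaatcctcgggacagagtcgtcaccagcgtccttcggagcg
Ndufa9: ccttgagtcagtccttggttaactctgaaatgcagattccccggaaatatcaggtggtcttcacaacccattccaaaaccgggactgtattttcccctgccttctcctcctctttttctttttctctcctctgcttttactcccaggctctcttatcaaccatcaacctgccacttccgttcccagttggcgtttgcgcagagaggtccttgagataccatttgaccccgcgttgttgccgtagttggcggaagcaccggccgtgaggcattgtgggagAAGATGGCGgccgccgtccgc
Ndufaf4: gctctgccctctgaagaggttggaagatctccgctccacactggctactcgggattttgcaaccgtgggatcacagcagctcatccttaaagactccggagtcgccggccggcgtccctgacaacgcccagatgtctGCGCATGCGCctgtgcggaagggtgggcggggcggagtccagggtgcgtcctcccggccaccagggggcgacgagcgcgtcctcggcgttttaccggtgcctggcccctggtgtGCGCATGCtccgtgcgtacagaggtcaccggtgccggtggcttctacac

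Heptamers in the longest annotated 3' UTR were also read. An earlier analysis of the same fold changes had ranked 4 of them as falling and 4 as rising, so their presence supports nothing here. A falling word was present in 33.5% of the 10474 tested genes that could be searched, in 6 of 37 structural genes (16.2%) and in 2 of 8 assembly factors. Of the 11 members that fell, Ndufb8 held CTACATA in its 3' UTR, Ndufaf1 held the word TACATAA, and the others held none of the 4. Ndufv2, which holds both of these words, was not called, nor were Ndufv1, Ndufa6, Ndufab1, Ndufb2 and Ndufaf2, which hold GGCCATG or the overlapping word GCCATGA instead. The searched 3' UTRs of Ndufb8 (1643 bases) and Ndufaf2 (2212 bases) were longer than the whole principal transcripts of these genes (680 and 678 bases). They therefore belong to other transcripts. A rising word was present in 9.36% of the tested genes and in 2 structural genes, Ndufab1 and Ndufb2.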

How the data were processed

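RNA-seq values of 6 libraries, 3 per group by their titles, were used. The authors deposited FPKM values, 1 column per library with the length and position of each gene, per the file headers (0 columns of other samples). The submitters' processing notes name mm10 as the build; which aligner, counter and annotation were used, and whether strand was, is not given in the sources used here. Multiplied by gene length, 100% of values above 0 were whole multiples of a library's step (tolerance 1e-06), which gave derived reads. The steps were inversely proportional to median-ratio size factors of these reads.

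Groups were compared with limma 3.58.1 (R 4.3.3; eBayes with trend, two-sided, Benjamini-Hochberg over all genes) on log2(FPKM + 0.5), over the 12257 genes that averaged at least 1 FPKM. A gene was called at an adjusted p below 0.05. The code was tested on simulated data. The main fit had no replicate block, so its calls and adjusted p ignore any pairing. Residuals of same-numbered libraries correlated at 0.382, 0.129 and 0.166, all over 0.1. Replicate numbers were therefore treated as pairs in the alternative fit with a block, on the evidence of the data only. Libraries of unlike number correlated at up to 0.106 (scrambled 3 with Tfeb 2) and 0.0996 (scrambled 2 with Tfeb 3), close to the value of pair 2, so the pairing is clear for replicate 1 only. No 2 libraries agreed within sampling noise (chi-square per gene 4.40 to 8.16 within groups). Members, lists and motifs were chosen with earlier results of these data known. Called members, all Ndufaf genes and the 2 highest and 2 lowest structural genes are given by library. Overlaps, transcript lengths, shared words and UTRs came from GENCODE M21 (mm10) transcripts; copies outside annotated transcripts were not analysed here. Depth and read numbers cover counting error only. Results for 1 member and 2 markers are not reported here beyond the counts, medians and sums that include them.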

Additional observations from a re-analysis of the deposited data

How the results depend on the processing

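Of 12 called members 8 kept direction and call in all 12 alternatives (pseudocounts of 0.1 and 1, no filter, TPM, voom on derived reads, the replicate block and each library left out), among them Ndufb6, Ndufb3, Ndufb8, Ndufa10, Ndufa13, Ndufaf1 and Ndufaf4. None of the 12 members changed direction in them. With each library left out in turn, 5 to 7 structural genes were lower and 1 to 2 were higher. The median log2 fold change of structural genes was -0.18 to -0.091. Of all genes tested 11.1% to 13.9% were lower with a library left out. In the same fits 2 to 3 assembly factors were lower, with a median of -0.27 to -0.15. Over the other settings 6 (no filter) to 13 (replicate block) structural genes and 2 to 3 assembly factors were lower. The share of all genes tested that were lower was 6.32% with no filter and 19.5% with the block. The replicate block kept all 12 calls and added Ndufa1, Ndufa3, Ndufab1, Ndufs7 and Ndufaf8, all lower. The lower limit with left-out libraries goes with fewer samples: calls over all genes fell to 22.6% without scrambled siRNA replicate 3. Ndufa4l2, at 14 and 7 reads, was too low for any statement.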
